A study of Homo sapiens with 25 samples.

Results

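The Y396E and S181E mutants of IGF2BP1 were compared directly for the RNA that came down with them after arsenite, in 3 RIP libraries of each line, 6 of the 25 libraries of the series. RNA immunoprecipitation (RIP) pulls a protein out of a cell lysate and sequences the RNA attached to it, and the libraries were chosen by their labels alone. Both groups were HCT116 colon carcinoma cells, whose labels give the genotype as IGF2BP2 KO, IGF2BP3 KO with a Tet-OsTIR1-PURO cassette, and which carried an IGF2BP1 fusion to mCherry, a red fluorescent protein, with the S181E or the Y396E change, from a lentivirus under the hPGK promoter. All 6 dishes received 500 µM sodium arsenite, an oxidative stressor, for 2 h. Each line was 1 population sorted within a narrow mCherry gate, so the mutation and the population cannot be told apart. The dishes of a line were plated and grown independently. The other groups shown here were the same 2 lines under control conditions with PBS (3 libraries each), the wild-type fusion after arsenite (3 libraries) and, as background, 1 arsenite library of parental HCT116 cells, not engineered and without mCherry. The fitted model also held the wild-type fusion under control conditions. It held the RQ mutant too, with arginines changed to glutamine, in both treatments. RNA-Seq of the same lines was not analysed here, and RIP levels were not divided by RNA levels, so less RNA in the cells and less RNA pulled down cannot be told apart.

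IGF2BP1 is an oncofetal RNA-binding protein with RRM and KH domains that is known to stabilise mRNAs such as MYC and CD44 and to move into stress granules after arsenite. Disordered linkers join its domains. S181 lies in the first linker and Y396 in the second, and glutamate at either place imitates the negative charge of a phosphate. The comparison asks whether the 2 charges, at different places of the same protein, leave the same RNAs attached under stress.

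The coding sequence around both residues is shown because the 2 lines differ only there by design. It was read from hg38 on the plus strand of chromosome 17 along the annotated coding exons of IGF2BP1, not from the lentiviral vector, and capitals mark the codon of the residue that was changed.
S181 (exon 6 of the transcript, chr17:49038295-49038321): ccccgccagggcTCAcctgtggcagcg
Y396 (exon 10 of the transcript, chr17:49043524-49043550): ggggctgctcccTATagctcctttatg

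The total count was 25930248 to 39330883 in the S181E libraries and 35082216 to 48926725 in the Y396E libraries, of which 70.7 to 76.6% and 72.1 to 75.4% fell on protein-coding genes. Libraries of the same line correlated at Pearson r = 0.990 to 0.993 over log2 CPM, against 0.966 to 0.984 between the lines. The epithelial markers EPCAM, KRT8, KRT18, KRT19, CDH1 and CDX2 were present in all 6 libraries (17.1 to 1180 CPM), while LGALS4 and CDH17 were at 0.257 CPM or less. KRT8 was at 877 to 966 CPM in S181E and 1165 to 1180 CPM in Y396E and was called higher there. Markers of blood cells reached 0.821 CPM at most, and PTPRC, CD3E and COL1A2 were at 0 in every library. COL1A1 lay between 7.74 and 13.4 CPM, while PDGFRB, PECAM1 and VWF, of the same panel, were at 0.967 CPM or less. SYT1, a synaptic vesicle gene, lay at 55.6 to 68.9 CPM in S181E and 40.8 to 44.2 CPM in Y396E, where it was called lower. The other neuron markers, SNAP25 and RBFOX3, were at 0.411 CPM or less. The part of these markers in the results was not tested.

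More genes were called lower than higher in the Y396E RIP, although 4506 of all genes tested lay above S181E and 4228 below. Of 8734 protein-coding genes tested, 226 were higher in Y396E (2.59%) and 805 were lower (9.22%) at an edgeR adjusted p under 0.05 and a change above 20%. The median called change was 0.41 in log2 among the higher genes and -0.52 among the lower genes. The called values reached 0.70 on one side and -1.27 on the other, and 12 genes were lower by more than 1 log2 while 0 were higher by as much. All 3 Y396E libraries lay above all 3 S181E libraries in 22.2% of the genes tested and below them in 29.4%. Among the called genes this held for 221 of the 226 higher and all 805 lower genes. The split depended on the scaling. With total counts in place of TMM factors 331 genes were higher and 699 lower, and with TMM factors from the 3707 genes not enriched in the RIP (mean CPM of the mCherry arsenite libraries no higher than in the parental one) 15 were higher and 1540 lower, since that scaling moved the median of all genes from 0.014 to -0.14. With the replicate number as a block in the model 662 genes were higher and 1226 lower. The counts also depended on single libraries. Without S181E replicate 1, 2 or 3 there were 37, 166 and 42 higher and 352, 773 and 513 lower genes, and without Y396E replicate 1, 2 or 3 there were 87, 39 and 60 higher and 567, 386 and 615 lower.

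RPL41, which encodes a very short protein of the large ribosomal subunit (chr12:56116590-56117967), fell furthest. It was at 156, 119 and 125 CPM in the S181E libraries and 67.4, 55.4 and 39.7 CPM in the Y396E libraries. The parental library held 79.9 CPM, above every Y396E value and below every S181E value. RPL41 had a log2 difference of -1.27 (SE 0.21, edgeR adjusted p = 4.6e-04). Reads that also match its processed copies were not counted, so its level is uncertain.

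GCFC2, a splicing-associated factor, was at 62.3, 52.7 and 60.0 CPM in the S181E libraries and 28.1, 23.7 and 23.2 CPM in the Y396E libraries, a 2.28-fold lower level in Y396E. TMEM123, which encodes a membrane glycoprotein, stood at 581, 489.8 and 550.4 CPM in the S181E libraries and 252, 243 and 264 CPM in the Y396E libraries. The log2 differences of GCFC2 and TMEM123 were -1.19 (SE 0.15, edgeR adjusted p = 1.9e-05) and -1.06 (SE 0.11, edgeR adjusted p = 6.5e-06). GTF2A2, a subunit of the general transcription factor TFIIA, was at 278, 259 and 250.0 CPM in the S181E libraries and 126, 118 and 129.5 CPM in the Y396E libraries, with a log2 difference of -1.04 (SE 0.11, edgeR adjusted p = 7.9e-06). The values of SNX3, a sorting nexin of early endosomes, were 233, 148 and 242 CPM in the S181E libraries and 106, 86.7 and 103 CPM in the Y396E libraries. Its log2 difference was -1.04 (SE 0.21, edgeR adjusted p = 0.0026).

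The other genes among the 10 that fell furthest were TMEM161B (-1.15), the E3 ubiquitin ligase gene RNF138 (-1.11), the RNA polymerase II subunit gene POLR2J (-1.04), the 18S rRNA dimethyltransferase gene DIMT1 (-1.03) and PRXL2C (-1.02). POLR2J has near-identical copies, and its counts are uncertain for that reason. Each of the 10 kept its call when the 6 libraries were left out in turn.

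The lower genes included some with the highest CPM in the RIP (a level not divided by length). PABPC1, the cytoplasmic poly(A)-binding protein, was at 12848, 11351 and 11966 CPM in the S181E libraries and 7122, 7070.3 and 7569.5 CPM in the Y396E libraries. Its log2 difference was -0.70 (SE 0.12, edgeR adjusted p = 5.5e-04). The wild-type fusion brought down 28555 ± 964 CPM (SD, n = 3) and the parental library held 2043 CPM, so PABPC1 stood above the background in both mutants. DCBLD2, a transmembrane receptor, was at 2339.6, 2015 and 2390.5 CPM in the S181E libraries and 1378, 1274 and 1577 CPM in the Y396E libraries, with a log2 difference of -0.64 (SE 0.12, edgeR adjusted p = 0.0013).

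PAICS, an enzyme of purine synthesis, was at 5266, 4618 and 5132 CPM in the S181E libraries and 3362, 2867 and 3576 CPM in the Y396E libraries. The log2 difference of PAICS was -0.58 (SE 0.15, edgeR adjusted p = 0.014). Its log2 value lay from -0.66 to -0.50 when single libraries were left out, and it was not called without S181E replicate 1 or Y396E replicate 2, nor with an offset for GC content (-0.40). CD44, the hyaluronan receptor and a known IGF2BP1 target, was at 1831, 1746 and 1854 CPM in the S181E libraries and 1254, 1241 and 1391 CPM in the Y396E libraries, with a log2 difference of -0.45 (SE 0.11, edgeR adjusted p = 0.0094), and was not called without Y396E replicate 2 (-0.51 to -0.42 with each library left out in turn).

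HMGA2 (chr12:65824460-65966291), an architectural chromatin protein whose long mRNA is a well-known ligand of this protein family, was at 1385, 1165 and 1347 CPM in the S181E libraries and 664, 595 and 721 CPM in the Y396E libraries. The S181E libraries held 1.92 times the Y396E level, with a log2 difference of -0.94 (SE 0.12, edgeR adjusted p = 2.5e-05). Wild-type libraries were at 1571 ± 124 CPM and the parental library at 176 CPM, so S181E lay nearer to wild-type than Y396E did. GARS1, the glycyl-tRNA synthetase, was at 678, 600.3 and 692 CPM in the S181E libraries and 411, 340.3 and 445 CPM in the Y396E libraries, with a log2 difference of -0.69 (SE 0.11, edgeR adjusted p = 3.7e-04). Both genes kept their calls when the libraries were left out in turn.

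Other known targets were not called. HMGA1, the paralog of HMGA2, was at 23434, 21026 and 21159 CPM in the S181E libraries and 21314, 21998 and 23581 CPM in the Y396E libraries, and the lines overlapped, with a log2 difference of 0.06 (SE 0.11, edgeR adjusted p = 0.73) that turned below 0 with TMM over the genes not enriched and with an offset for GC content. MYC, the transcription factor whose mRNA stability IGF2BP1 is known for, was at 457, 477 and 449 CPM in the S181E libraries and 531, 546 and 545 CPM in the Y396E libraries with a log2 difference of 0.26 (SE 0.09, edgeR adjusted p = 0.063). ACTB, the zipcode mRNA from which the family was first known, gave a log2 difference of 0.29 (SE 0.15, edgeR adjusted p = 0.20). PHC3 (0.02, adjusted p = 0.90 from edgeR), a Polycomb gene, and LIPA (-0.11, adjusted p = 0.67 from edgeR), a lysosomal lipase gene, were outside the calls too, and the sign of each changed in other settings. CCDC127, IGF2 and LIN28B were under the level for testing. Of the 15 textbook target mRNAs tested, 2 were higher and 5 lower, against 2.59% and 9.22% of all genes, with a median log2 of -0.14 against 0.014. One of the higher members was IGF2BP1 itself, described next, and with the offset for GC content 0 were higher and 3 lower.

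IGF2BP1 reads, which come from the fusion mRNA, were at 40.8, 42.3 and 41.2 CPM in the S181E libraries and 52.0, 52.0 and 52.3 CPM in the Y396E libraries, and the parental library held 0. The groups were apart, with a log2 difference of 0.36 (SE 0.12, edgeR adjusted p = 0.045), but the call was lost whichever of the 6 libraries was left out, and with the offset for GC content, at values over the libraries from 0.35 to 0.37. This is RNA in the RIP and not the amount of bait protein, whose part in the results was not tested. IGF2BP2 (-0.31, adjusted p = 0.16 from edgeR) and IGF2BP3 (-0.04, adjusted p = 0.72 from edgeR), the paralogs that the labels give as knocked out, kept reads in every library, and counts over a whole gene do not show whether it was edited.

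The genes that rose in Y396E did so by less. SLC25A29, a mitochondrial carrier of basic amino acids, was at 14.1, 15.3 and 15.1 CPM in the S181E libraries and 22.2, 20.2 and 28.2 CPM in the Y396E libraries, and its log2 difference of 0.70 (SE 0.15, edgeR adjusted p = 0.0047) was the highest among the called genes. The call held when each library was left out in turn. ATG4D, an autophagy protease, was at 26.5, 28.6 and 31.0 CPM in the S181E libraries and 42.2, 42.0 and 42.4 CPM in the Y396E libraries, with a log2 difference of 0.59 (SE 0.15, edgeR adjusted p = 0.011), and was not called without S181E replicate 1 (0.54 to 0.65 with each library left out). FAM234A was at 36.3, 40.9 and 30.3 CPM in the S181E libraries and 46.4, 58.7 and 54.3 CPM in the Y396E libraries, with a log2 difference of 0.60 (SE 0.14, edgeR adjusted p = 0.0064), and lost its call without Y396E replicate 2 or S181E replicate 3 (0.49 to 0.69). The groups of these genes did not overlap, which the choice of genes required. The parental library held 39.3 CPM of SLC25A29, above every Y396E value, 36.4 CPM of ATG4D and 31.3 CPM of FAM234A. In the wild-type RIP these stood at 0.41, 0.83 and 1.54 times the parental level.

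The remaining 7 of the 10 highest called genes had log2 differences from 0.57 to 0.64 and were each not called without 4 or more of the 6 libraries. They were the sialyltransferase gene ST6GALNAC6, FAM131A, the Golgi tethering gene COG4, the argininosuccinate synthase gene ASS1, ZNF512B, EPS8L2 and DOCK3. ST6GALNAC6 stood at 1.82 times the parental level in the wild-type RIP, and the others at 0.41 (COG4) to 0.93 (DOCK3) times. Among the higher genes with the most CPM, the translation elongation factor gene EEF1A1 was at 1859, 2103 and 1991 CPM in the S181E libraries and 2632, 2608 and 2378 CPM in the Y396E libraries, with the parental library higher than both at 3881 CPM. Its log2 difference was 0.39 (SE 0.11, edgeR adjusted p = 0.026), and when single libraries were left out it kept its call only without S181E replicate 2 or Y396E replicate 3, at values from 0.35 to 0.43. HSP90AB1 (0.37), a cytosolic chaperone, the integrin gene ITGB4 (0.31) and the actin-bundling gene FSCN1 (0.30) lost their calls whichever library was left out, S181E replicate 2 excepted for HSP90AB1 and FSCN1, and with TMM over the genes not enriched. With the offset for GC content ITGB4 was at 0.058 and FSCN1 at 0.011. In the wild-type RIP HSP90AB1 stood at 0.36 times the parental level, ITGB4 at 1.07 and FSCN1 at 2.09.

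The difference followed how far an RNA stood above the background. In the wild-type arsenite RIP, 802 of the tested genes were at least 4-fold over the parental library. Of these, 258 were lower in Y396E than in S181E (32.2%) and 4 were higher, against 6.90% lower among the 7932 genes under 4-fold. Their median log2 difference was -0.28, against 0.046 for the others, and 84.2% of them were below 0. The wild-type and parental libraries that chose these genes are not part of the contrast. The parental background was 1 library, and 34 of the 802 genes had under 3 counts there. Across thresholds, 24.6% of 2237 genes at least 2-fold over parental and 31.7% of 287 genes at least 8-fold over parental were lower. Genes below the parental level numbered 3757, of which 38 were lower and 124 higher. Over all genes the log2 ratio of wild-type to parental correlated with the difference at Spearman rho = -0.52, a description over genes that are not independent.

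Wild-type levels, which were no part of the contrast, lay above both mutants for 460 of the 805 lower genes, between them for 339 and below both for 6. The median of these genes was -0.58 in log2 for Y396E over wild-type and -0.04 for S181E over wild-type. For the 226 higher genes, wild-type lay below both mutants for 108, between them for 103 and above both for 15, with medians of 0.39 and -0.02. Both sets of values share the wild-type libraries, and the genes were chosen on the difference between the mutants.

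The difference also followed base composition. Genes were divided into 5 bins of equal size by the GC content of their annotated transcript. The median log2 difference was -0.23 in the lowest bin (31.0 to 40.5% GC) and -0.14, -0.0038, 0.17 and 0.29 in the following bins, the last holding transcripts of 58.5 to 74.8% GC. In the lowest bin 22.2% of the genes were called lower and 0 higher. In the highest bin 0.458% were lower and 7.96% higher. The lower genes had a median transcript GC of 40.7%, the higher genes 60.2% and those not called 49.2%. Over 8732 genes the Spearman rho of GC and the difference was 0.63. Each of the 9 pairs of 1 Y396E and 1 S181E library gave a rho between 0.474 and 0.667, while the 6 pairs of libraries of the same line gave values from -0.300 to 0.245. GC content correlated at 0.41 with the log2 difference of Y396E from wild-type and at -0.075 with that of S181E from wild-type.

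Transcript GC and the level over parental correlated at rho = -0.11 over these genes. Among genes at least 4-fold over parental, 101 of 152 in the lowest GC bin were lower (66.4%, median -0.52) and 6 of 142 in the highest bin (4.23%, median -0.019). Among genes under 4-fold, 287 of 1595 in the lowest bin were lower (18.0%, median -0.21), and in the highest bin 2 of 1605 were lower and 138 higher (8.60%, median 0.30). With an offset that removed each library's trend over GC content, 60 genes were called higher and 350 lower, of which 18 and 297 were among the genes called without it. The 4-fold set kept a median of -0.27 there. Of the 10 highest called genes, FAM234A was called with this offset and 9 were not, among them SLC25A29 at 0.40 and ATG4D at 0.30. HMGA2, PABPC1 and the 10 genes that fell furthest were called.

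**Figure D1:**
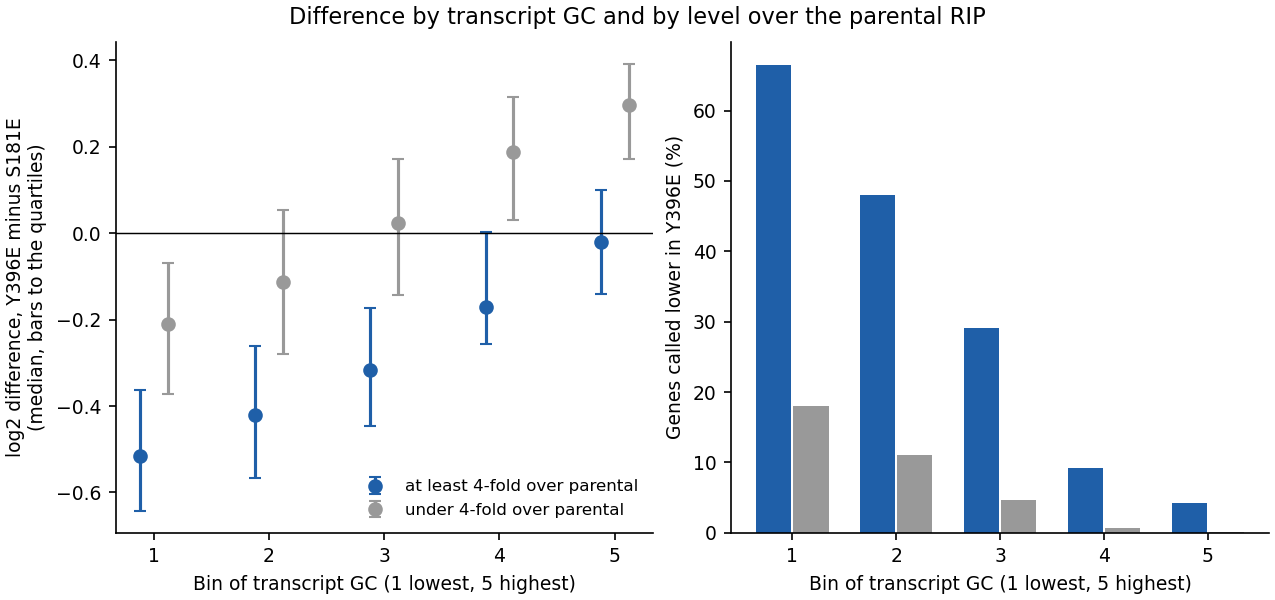
Left, median log2 difference with bars to the quartiles, and right, percent of genes called lower in Y396E, by bin of transcript GC (1 lowest to 5 highest), for genes at least 4-fold over the parental library in the wild-type RIP (blue) and under 4-fold (grey). In each bin the blue median is below the grey one, from -0.52 against -0.21 in the first to -0.019 against 0.30 in the last.

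The 3′ UTR, where IGF2BP1 is known to bind many targets, was longer in the lower genes. Its median length was 2245 bases in the 805 lower genes, 931 in the 226 higher genes and 1492 in the genes not called, and its median GC content was 35.3, 55.9 and 43.5%. The correlation of 3′ UTR length with the difference was -0.38 over all genes and lay between -0.22 and -0.10 within the bins of GC content. Coding length correlated at -0.10. Long 3′ UTRs were poorer in GC in this annotation, with a rho of -0.43 between transcript GC and 3′ UTR length.

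Gene lists by function were described by their counts and medians, beside 2.59% higher and 9.22% lower and a median of 0.014 over all genes. Of the 78 cytosolic ribosomal protein genes 70 lay above 0, with a median of 0.31, yet 2 were called higher and RPL41 lower. RPL29 was next to RPL41 at the low end, at -0.29 and not called. The medians were also above 0 for the 37 histone genes (0.26, 0 called by edgeR and 1 at an unadjusted p under 0.05), the 62 nuclear-encoded respiratory chain genes (0.24, 1 called lower), the 31 proteasome genes (0.23, 2 lower), the 17 glycolytic genes (0.27, 1 higher) and the 19 NRF2 target and metallothionein genes (0.19, 1 lower). In the wild-type RIP these 6 lists had median levels of 0.50, 0.39, 0.56, 0.50, 1.05 and 0.638 times the parental level. The medians depended on the setting. With TMM over the genes not enriched they were 0.16 for ribosomal proteins, 0.11 for histones, 0.091 for the respiratory chain, 0.076 for the proteasome, 0.12 for glycolysis and 0.034 for the NRF2 list. With the GC offset they were, in the same order, 0.30, 0.10, 0.19, 0.20, 0.15 and 0.15. NDUFA12, a complex I subunit, was at 45.9, 39.1 and 45.3 CPM in the S181E libraries and 25.1, 22.8 and 26.8 CPM in the Y396E libraries, with a log2 difference of -0.77 (SE 0.17, edgeR adjusted p = 0.005), and was not called with the GC offset (-0.59). PSMD5, a proteasome assembly chaperone, differed by -0.71 (SE 0.12, edgeR adjusted p = 6.6e-04) and NFE2L2, the NRF2 gene itself, by -0.61 (SE 0.11, edgeR adjusted p = 7.2e-04).

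Mitochondrially encoded mRNAs, by contrast, were all below 0, 13 of 13 with a median of -0.24, and 0 were called by edgeR (0 at an unadjusted p under 0.05), with MT-CO1 at -0.12 and MT-ND6 at -0.37. The median was -0.10 with the GC offset and -0.39 with TMM over the genes not enriched. They stood 27.8-fold over parental in the wild-type RIP (median). Together they took 15.1 to 16.7% of the protein-coding counts in S181E, 13.1 to 15.7% in Y396E, 18.3 to 21.1% in wild-type and 1.04% in the parental library. The 2 mutants overlapped in this share, and an exact two-sided permutation test gave p = 0.20, where 3 against 3 libraries cannot give less than 0.10.

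Calls among the machinery of translation are set beside the shares of all genes, 2.59% higher and 9.22% lower. The 20 genes for poly(A)-binding proteins and their partners held 1 higher and 7 lower genes, with a median of -0.15. With the GC offset these were 0 and 2 (median -0.084). TOB1, which links the deadenylase to its targets, was at 162, 154 and 163 CPM in the S181E libraries and 101, 98.3 and 114 CPM in the Y396E libraries, with a log2 difference of -0.58 (SE 0.12, edgeR adjusted p = 0.0024), and PABPC1 is in this list too. Of 34 initiation factor genes 3 were higher and 2 lower. EIF3E, an EIF3 subunit, was at 575, 531 and 496 CPM in the S181E libraries and 326, 322 and 292 CPM in the Y396E libraries. It was lower in every Y396E library, with a log2 difference of -0.73 (SE 0.10, edgeR adjusted p = 8.3e-05). The 12 elongation and release factor genes had 2 higher members, EEF1A1 among them, and 1 lower, and the 31 aminoacyl-tRNA synthetase genes had 2 higher and 3 lower, among them GARS1 and the mitochondrial RARS2 (-0.48, not called without S181E replicate 1, -0.52 to -0.41). Of 61 mitochondrial ribosomal protein genes 5 were lower (8.20%, near the share of all genes) and 0 higher. MRPS30 (-0.56, SE 0.11, edgeR adjusted p = 0.0019) and MRPL18 (-0.51, SE 0.11, edgeR adjusted p = 0.0032) led them. With the GC offset the counts were 1 higher and 1 lower initiation factor, 1 higher elongation factor, 1 lower synthetase gene and 3 lower mitochondrial ribosomal protein genes, and RARS2 was not called.

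Calls in the lists of RNA regulators are given beside 2.59% higher and 9.22% lower over all genes. Of the 39 hnRNP and SR splicing factor genes 4 were lower, including TRA2B at -0.56 (SE 0.10, edgeR adjusted p = 9.3e-04), and of the 27 core stress granule genes 1 was higher and 3 lower. UBAP2L, one of these, was at -0.51 and kept its call only without S181E replicate 2 or Y396E replicate 3 (-0.61 to -0.45). The m6A list had 2 higher and 2 lower genes of 17. Its nuclear reader YTHDC1 was at -0.59 and was not called without Y396E replicate 2 or S181E replicate 3 (-0.67 to -0.46). With the GC offset 0 genes of the m6A list were called and YTHDC1 was at -0.33, while the splicing factors held 1 higher and 2 lower and the stress granule genes 2 of each. Of 13 microRNA silencing genes 0 were called by edgeR (3 at an unadjusted p under 0.05), and their median was -0.14.

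The arsenite response lists are set beside the same shares of all genes, 2.59% higher and 9.22% lower. Of 21 heat shock chaperone genes 1 was higher and 2 lower. HSPD1, the mitochondrial HSP60 chaperone, was at 1088, 912 and 1194 CPM in the S181E libraries and 646, 539 and 606 CPM in the Y396E libraries, and Y396E was the lower in all libraries with a log2 difference of -0.80 (SE 0.13, edgeR adjusted p = 2.7e-04). Of 17 integrated stress response genes 1 was higher, ATF4 itself at 0.41 (SE 0.12, edgeR adjusted p = 0.024), and 1 lower. ATF4 kept its call only without S181E replicate 3 (0.29 to 0.58). Of 23 genes of ER chaperones and the unfolded protein response 1 was higher and 1 lower, of 22 immediate early genes 1 was higher, and of 23 p53 targets 0 were called by edgeR (5 at an unadjusted p under 0.05). With the GC offset 1 heat shock gene was higher and 1 lower, 2 integrated stress response genes were lower, 0 of the ER and immediate early genes were called, 2 p53 targets were higher, and ATF4 was at 0.30 and not called.

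Lists of growth and chromatin genes held calls of both signs, set beside 2.59% higher and 9.22% lower over all genes. The shares called lower were below that in the replication (5.41%), centromere (6.25%) and zinc finger (5.17%) lists. The 25 cyclin and E2F genes held 4 lower and 1 higher gene. E2F5 was lower (-0.90, SE 0.22, edgeR adjusted p = 0.01) and not called without S181E replicate 3 (-0.999 to -0.76). E2F4 was higher (0.46, SE 0.10, edgeR adjusted p = 0.0045), so members of the same family moved in opposite directions. The call of E2F4 was lost with TMM over the genes not enriched. Of 27 Polycomb genes 5 were lower and 1 higher. PCGF6, a subunit of a variant PRC1 complex, was at 83.5, 64.8 and 85.0 CPM in the S181E libraries and 40.4, 38.3 and 44.5 CPM in the Y396E libraries, with a log2 difference of -0.89 (SE 0.13, edgeR adjusted p = 1.1e-04). YAF2, another PRC1 gene, differed by -0.72 and lost its call without S181E replicate 1 or Y396E replicate 3 (-0.86 to -0.62). CHD and SWI/SNF remodeler genes had 3 lower and 1 higher of 25, with CHD7 at -0.45 (not called without S181E replicate 1 or Y396E replicate 1, -0.55 to -0.36). DNA replication factors (37 genes) had 2 lower and 1 higher, centromere and kinetochore genes (32) 2 lower and 1 higher, among them SKA3 at -0.65 (SE 0.12, edgeR adjusted p = 8.3e-04), kinesins (23) 2 higher, the MYC and MAX network (8) 1 lower, and zinc finger genes of chromosome 19 (58) 3 lower and 1 higher, with ZNF480 at -0.83 (SE 0.17, edgeR adjusted p = 0.0029). With the GC offset 2 genes were lower in each of the cyclin and E2F, Polycomb and centromere lists and 1 was higher, 1 was lower among the remodelers, the replication factors and the zinc finger genes, 1 kinesin was higher, 0 of the MYC network were called, and YAF2 was not called (-0.43).

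Calls among genes of transport and turnover are set beside 2.59% higher and 9.22% lower over all genes. Of 31 nucleoporin genes 7 were lower (22.6%) and 0 higher. NUP58, a central channel nucleoporin, differed by -0.49 (SE 0.11, edgeR adjusted p = 0.0047), and NUP42 by -0.54, the latter not called without S181E replicate 1 or Y396E replicate 2 (-0.63 to -0.46). With the GC offset 0 nucleoporin genes were called, NUP58 was at -0.30 and NUP42 at -0.36. Of 37 RAB GTPase genes 5 were lower and 0 higher, RAB5A of early endosomes at -0.60 among them (not called without S181E replicate 1, -0.68 to -0.51). The 74 genes of the KLHL, FBXO, FBXW and TRIM families had 8 lower and 1 higher. TRIM26 was at 197, 183 and 234 CPM in the S181E libraries and 116, 102 and 133 CPM in the Y396E libraries, a 1.71-fold lower level in Y396E, with a log2 difference of -0.77 (SE 0.14, edgeR adjusted p = 8.0e-04). TRIM24, a nuclear receptor cofactor, differed by -0.72 (SE 0.15, edgeR adjusted p = 0.0036). Solute carriers gave 10 lower (6.71%, under the share of all genes) and 4 higher (2.68%) of 149. The zinc transporter genes SLC30A9 (-0.75, SE 0.13, edgeR adjusted p = 8.5e-04) and SLC39A6 (-0.69, SE 0.10, edgeR adjusted p = 7.9e-05) were among the lower. Lysosomal genes (26) had 3 lower and 2 higher, integrins (9) 2 higher, actin regulators (33) 2 lower and 1 higher, WNT genes (25) 1 higher and cholesterol synthesis genes (19) 0 of either by edgeR (5 at an unadjusted p under 0.05). With the GC offset the counts were 1 lower RAB gene, 5 lower and 1 higher in the ligase families, 7 lower solute carriers and 2 lower lysosomal genes, and 0 of the integrin, actin, WNT and cholesterol genes, and RAB5A was not called (-0.42).

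The same 2 lines were compared under control conditions, in other libraries of the same model, which shared 1 estimate of the spread with the arsenite libraries. There 314 genes were higher in Y396E (3.6%) and 569 lower (6.51%) by edgeR, and 722 and 1050 with the replicate number as a block. With total counts the control split was 702 and 347, so its direction depended on the scaling. Without Y396E control replicate 2 it was 41 and 130, without S181E replicate 1 it was 165 and 304, without S181E replicate 3 it was 132 and 193, and without Y396E replicate 1 it was 177 and 386. Of the genes higher in arsenite, 91 were also higher in control, which was 40.3% of the first list and 29.0% of the second. Of those lower in arsenite, 331 were also lower in control (41.1% and 58.2%). No gene was called in opposite directions. Over 8734 genes the log2 differences in both treatments correlated at Pearson r = 0.74 and Spearman rho = 0.75. The libraries share the lines and their sorted populations.

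HMGA2 was at 2768, 2351 and 2868 CPM in S181E and 1663, 1422 and 1738 CPM in Y396E under control conditions, a log2 difference of -0.72 (SE 0.12, edgeR adjusted p = 0.0011). RPL41 differed by -1.65 (SE 0.21, edgeR adjusted p = 9.3e-05), and SNX3 by -1.04 (SE 0.21, edgeR adjusted p = 0.0049). These 3 genes were lower in Y396E in both treatments. The relation to GC content was there as well, with a rho of 0.61. Genes at least 4-fold over parental had a control median of -0.19.

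The interaction asked whether the difference between the lines changed with arsenite. Of 8734 genes 3 were called (0.0343%), and 369 were under an unadjusted p of 0.05. In all 3 the difference was more negative in arsenite, and 0 went the other way, while DESeq2's Wald test called 25 more negative and 1 more positive, and edgeR with the replicate number as a block 29 and 2. CCNA2, cyclin A2, was at 431, 358 and 378 CPM in the S181E libraries and 222, 201 and 206 CPM in the Y396E libraries after arsenite. In control the values were 92.8, 98.6 and 89.6 CPM in S181E and 91.5, 90.7 and 125 CPM in Y396E. The lines were apart in arsenite, where Y396E was the lower, and overlapped in control. Its log2 difference was -0.86 in arsenite and 0.14 in control, and the interaction was -0.99 (SE 0.17, edgeR adjusted p = 0.027).

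SERPINE2, a secreted protease inhibitor, was at 189.6, 170.4 and 171 CPM in the S181E libraries and 122, 115 and 122 CPM in the Y396E libraries after arsenite. In control it was at 46.8, 47.6 and 41.2 CPM in S181E and 49.6, 54.2 and 61.7 CPM in Y396E, so the lower line differed between treatments. Its interaction was -0.82 (SE 0.14, edgeR adjusted p = 0.027). UBE2D3, a ubiquitin-conjugating enzyme, was at 781, 744 and 732 CPM in the S181E libraries and 449, 414 and 471 CPM in the Y396E libraries after arsenite. Its control levels were 614, 558 and 584 CPM in S181E and 534, 531 and 629.9 CPM in Y396E. The control values overlapped and the arsenite values did not, with an interaction of -0.68 (SE 0.13, edgeR adjusted p = 0.0498). No gene was called without S181E control replicate 1, Y396E control replicate 3 or any arsenite library except S181E replicate 2, without which 1 was called.

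**Figure D2:**
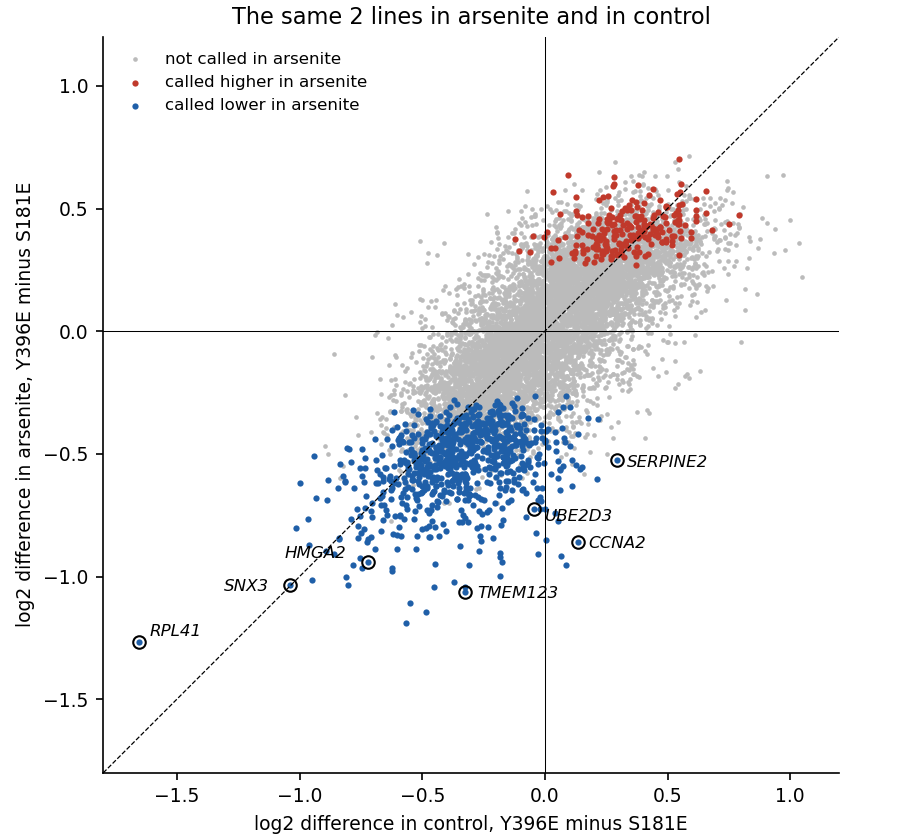
Log2 difference between Y396E and S181E in arsenite (vertical axis) against that in control (horizontal axis), 1 point per gene, coloured by the call in arsenite, with the dashed line marking equal differences. Most called genes lie on the same side of 0 in both treatments (221 of 226 higher and 765 of 805 lower). The same holds for 78.4% of the genes not called. CCNA2, SERPINE2 and UBE2D3 lie far below the dashed line.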

How the data were processed

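RIP-seq libraries were made with RFP-Trap beads, rRNA depletion by riboPOOL and a directional NEBNext kit. Reads were demultiplexed with bcl2fastq 2.20.0.422, checked with FastQC 0.11.9, aligned to hg38 with STAR 2.7.11b (2 mismatches) and counted on exons per gene with featureCounts of Subread 2.0.6, reverse-stranded, against GENCODE 46. The deposited values are these raw counts of 63086 genes per library. Reads that map to several places are left out by default, so genes with near-identical copies are uncertain. Names, biotypes and transcript features came from GENCODE 44 by identifier, and 545 identifiers were not found.

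Scaling by TMM, CPM and testing used edgeR 4.0.16 in R 4.3.3, with DESeq2 1.42.0 as an alternative. Tables were made in Python 3.11.15 (pandas 2.3.3) and drawn with matplotlib 3.10.9. A protein-coding gene had to exceed 10 CPM in 12 or more of the 23 mCherry libraries, which 8734 did. One quasi-likelihood model held 8 groups and all 23 mCherry libraries, without covariates, with Benjamini-Hochberg adjustment over all genes. Calls needed an adjusted p under 0.05 together with a change above 20%. Printed CPM used TMM over all 25 libraries. P-values measure the spread between dishes of 1 population per line. The procedure was tested on simulated counts in which 200 of 8734 genes were changed. It called 35.5% of the changes of 0.5 log2, 93.4% of those of 1 log2 and 100% of those of 2 log2. Of 158 calls 11 were false, so many differences near 0.5 log2 can be missed. No pair of libraries held identical counts.

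Members and lists were chosen with earlier results of these data known. Named genes were, by rule, the 10 highest and 10 lowest called genes without overlap, the 4 called genes of highest CPM in each direction, IGF2BP genes and known targets, interaction calls, and up to 4 extremes per list. Some genes are not reported here. Same-numbered control libraries deviated together (correlations of 0.13, 0.47 and 0.57), so their numbers were taken to pair them. The main fit did not use this pairing, and the arsenite, control and interaction counts are given with and without the replicate number as a block. Alternatives covered scaling, test, filter, biotypes, the groups in the model, the replicate block, each library left out and, chosen after seeing the data, an offset for transcript GC.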

Additional observations from a re-analysis of the deposited data

Results flagged for a closer look

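CCNA2, SERPINE2 and UBE2D3 differed between the treatments by edgeR's interaction test, with interaction values of -0.99, -0.82 and -0.68 in log2. In all 3 every Y396E arsenite library was below every S181E arsenite library, as it was in 29.4% of all genes tested. In control the lines overlapped for CCNA2 and UBE2D3, and Y396E was the higher for SERPINE2. The edgeR adjusted p of UBE2D3 was 0.0498. None of these genes was called with TMM over the genes not enriched, glmTreat or filterByExpr, nor without any arsenite library except S181E replicate 2.

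Mitochondrial rRNA, which was not among the protein-coding genes of the main fit, took at least 22.2% of all counts in each of the 6 libraries. The share was 11.8% in the parental arsenite library. The shares were 22.2 to 28.2% in S181E and 23.4 to 26.7% in Y396E, and an exact two-sided permutation test of the lines gave p = 1.0, with 0.10 the smallest p that 3 against 3 libraries allow.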

How the results depend on the processing

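In each of the following, values are genes higher and lower in Y396E. In arsenite (226 and 805) they were 15 and 1540 with TMM over the genes not enriched, 0 and 176 with glmTreat for a change above 20%, 117 and 656 with filterByExpr, 1351 and 1887 with only the compared groups in the model, 60 and 350 with the GC offset and 442 and 951 with DESeq2's Wald test. Leaving out single arsenite libraries gave 37 to 166 higher and 352 to 773 lower. In control (314 and 569) they were 702 and 347 with total counts, 131 and 841, 5 and 46, 227 and 437, 116 and 257, 77 and 214, and 477 and 815 in the same order as above, and 41 to 428 and 130 to 810 without single libraries. For the interaction (0 and 3) total counts gave 13 more negative, all biotypes 7, only the compared groups 7, the GC offset 6, and Wald's test 1 and 25. With TMM over the genes not enriched, glmTreat and filterByExpr 0 were called, and 0 to 3 without single libraries, all more negative. The median of genes 4-fold over parental moved to -0.44 with TMM over the genes not enriched. DESeq2 size factors changed no count by more than 1.5 times.

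Same-numbered arsenite libraries deviated together at correlations of 0.048, 0.27 and 0.28, each library correlating best with its own number. Differently numbered libraries of replicates 2 and 3 were at -0.26 and -0.25. Since 1 of the 3 values was under 0.1, the numbers were not taken to pair them, and whether they do was not tested. With the replicate number as a block 662 genes were higher and 1226 lower in arsenite, 722 and 1050 in control, and 2 and 29 in the interaction. With the block and the GC offset together the values were 273 and 736, 243 and 580, and 2 and 28.

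Of 62 named called genes, 28 kept their call under every setting and 26 lost it without at least 1 library. Of the named genes that were not called, 4 changed sign. IGF2BP3 was at 0.015 with total counts, 0.14 with the GC offset and 0.14 with block and offset. PHC3 was at -0.13 with TMM over the genes not enriched, -0.012 with only the compared groups, -0.029 without S181E replicate 2 and -0.040 without Y396E replicate 3, with single libraries left out from -0.040 to 0.060. LIPA was at 0.15 with the offset, with the block or without it. HMGA1 was at -0.091 with TMM over the genes not enriched and -0.17 with the offset, with the block or without it. The cause of these changes was not tested. Depth limits genes under the CPM minimum, which were not tested.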
